A study of Mus musculus with 60 samples.

Results

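Sox1, Sox2, Sox3 and Sox21 are the SoxB transcription factor genes of the neural progenitor, and their RNA was followed here in the embryonic mouse brain. The members were taken by symbol from the deposited table, as 4 of its 24378 features. All 4 passed the filter on low values in every comparison, and none was at 0 in any of the 60 libraries.

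SoxB proteins bind DNA through an HMG box and mark dividing cells in the ventricular zone of the neural tube. Sox1, Sox2 and Sox3 form the SoxB1 group, activators that hold neural cells in the progenitor state. Sox21 belongs to SoxB2, whose members act mostly as repressors on the same kind of site and favour the step towards neurons. Sox2 is also kept in glia, and Sox3 on the X chromosome is needed for the hypothalamus and pituitary.

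RNA was sequenced in bulk from brain pieces of TH-GFP mouse embryos, in which the tyrosine hydroxylase promoter drives a green fluorescent protein in dopaminergic cells. Ventral forebrain, ventral midbrain, ventral hindbrain, dorsal midbrain and alar plate were each taken on successive days (E11.5, E12.5, E13.5, then E14.5), with 3 libraries per group and 20 groups. All groups carry the reporter, the labels name no treatment, and the ventral midbrain piece took in the floor plate and the basal plate. Whether the libraries of a group stem from different embryos is not stated in the labels, and a p-value then measures only sample-to-sample spread, which may be technical. In such pieces fewer progenitors and less RNA per progenitor cannot be told apart.

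Each of the 4 genes is a single exon in GENCODE vM21, on its own chromosome of mm10. Sox1 spans chr8:12395295-12400126 (plus strand), Sox2 chr3:34650405-34652461 (plus), Sox3 chrX:60891366-60893430 (minus) and Sox21 chr14:118233232-118237030 (minus). Sox2 lies inside Sox2ot, a long non-coding gene on the same strand, and 0 of its 18 transcripts has an exon over Sox2. Sox1 lies in the same way inside Sox1ot, where 0 of 2 transcripts has an exon over it. Reads from unspliced RNA of these hosts could not be told apart from those of Sox1 and Sox2.

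The 250 bases before the start of Sox2 and of Sox21 are shown because these genes had different regional orders from E12.5 on. They are RefSeq's, on GRCm38.p6 (the mm10 assembly), 5′ to 3′ on the gene's strand. Sox2 is at chr3:34649745-34649994 and Sox21 at chr14:118237031-118237280, and RefSeq starts Sox2 upstream of the GENCODE start.
Sox2: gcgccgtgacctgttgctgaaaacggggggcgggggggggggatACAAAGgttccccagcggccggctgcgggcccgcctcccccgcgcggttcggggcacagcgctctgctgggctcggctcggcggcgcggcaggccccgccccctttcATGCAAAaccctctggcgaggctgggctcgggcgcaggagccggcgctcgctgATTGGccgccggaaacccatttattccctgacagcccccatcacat
Sox21: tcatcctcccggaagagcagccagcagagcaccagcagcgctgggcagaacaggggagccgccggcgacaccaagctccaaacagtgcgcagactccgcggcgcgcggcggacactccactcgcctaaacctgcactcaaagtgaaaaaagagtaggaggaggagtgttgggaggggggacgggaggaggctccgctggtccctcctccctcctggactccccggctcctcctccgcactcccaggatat
Capitals mark ACAAAG or ACAATG (the SOX core), ATGCAAA (the octamer core of POU factors) and CCAAT, each searched on both strands. Sox2 has 1 match of each kind, without overlap. ACAAAG begins 206 bases before the start, ATGCAAA 99 bases, and CCAAT, on the other strand, 46 bases. Sox21 has no match to these letters in the window. Of 32851 promoter windows of this length, 25.2% hold a SOX core, 4.12% the octamer core and 33.8% a CCAAT. The Sox21 window overlaps an exon of the non-coding gene Gm4675 on the opposite strand.

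Values are RPKM, reads per kilobase of listed transcript and per 1000000 assigned reads, a scale on which levels of different genes can be compared. In units of 1000000 reads, E11.5 libraries held 1.58 to 6.43, E12.5 libraries 8.67 to 13.1, E13.5 libraries 4.97 to 23.6 and E14.5 libraries 0.979 to 6.13. The lowest read numbers behind a value were 4 for Sox3, 24 for Sox1, 43 for Sox21 and 144 for Sox2. The run was read from the prefix of each sample's description, and the labels do not say what that prefix stands for. Within each region every stage had its own run by this reading, so stage and run cannot be told apart there. The midbrain libraries of E14.5, ventral and dorsal, had a run separate from that of the remaining 3 regions. The dorsal midbrain libraries of E11.5 were apart from the run of the other E11.5 libraries. They shared the run of those 3 regions at E14.5.

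In 16 libraries the highest correlation with another library of the same group, across genes, was under 0.97, and these are called the libraries that stand apart. They comprise 8 at E11.5, 3 at E12.5 and 5 at E14.5. The 8 at E11.5 correlated better on average with another region than with their own, namely all 3 of the ventral forebrain, all 3 of the alar plate, ventral midbrain replicate 4 and ventral hindbrain replicate 2. At E12.5 those that stand apart are ventral forebrain replicate 1, dorsal midbrain replicate 3 and alar plate replicate 3. All 3 alar plate libraries of E12.5 also correlated better on average with another region, replicates 1 and 3 with the dorsal midbrain and replicate 2 with the ventral forebrain, although replicates 1 and 2 had an r of 0.987 with each other. Those 8 libraries of E11.5 and the alar plate libraries of E12.5 are therefore known by their labels only. The remaining 7 of E11.5 correlated best on average with their own region. Some results that rest on libraries apart are given with and without them, and others only with them.

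Regional markers at E13.5 followed most of the labels. Foxa2, of the floor plate, was at 58.5 ± 8.41 RPKM in the ventral midbrain (SD, n = 3) and 0.0127 ± 0.0220 in the dorsal midbrain. Nkx2-1, of the hypothalamus, was at 84.03 ± 36.01 RPKM in the ventral forebrain. Hoxa2 was at 16.9 ± 10.7 RPKM in the ventral hindbrain and at 0 in all 3 ventral midbrain libraries. Pax7 was at 45.8 ± 5.70 RPKM in the dorsal midbrain and 15.3 ± 4.39 in the alar plate.

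Sox2 was the most abundant of the 4 genes in 60 of 60 libraries. It made up 35.7 to 92.2% of their summed RPKM, with a median of 57.0%. Its median over libraries was 58.4 RPKM, against 19.6 for Sox21, 17.5 for Sox1 and 10.5 for Sox3. The make-up of the remainder differed by region. Sox21 exceeded Sox1 in 11 of 12 ventral midbrain libraries but in 1 of 12 from the ventral hindbrain. Sox3 exceeded Sox1 in 11 of 12 alar plate libraries and in 3 of 12 from the ventral midbrain. At E14.5 Sox21 held 35.4% of the sum in the alar plate and 9.22% in the ventral forebrain, and Sox3 held 3.72% in the ventral midbrain (means of 3 libraries).

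**Figure D1:**
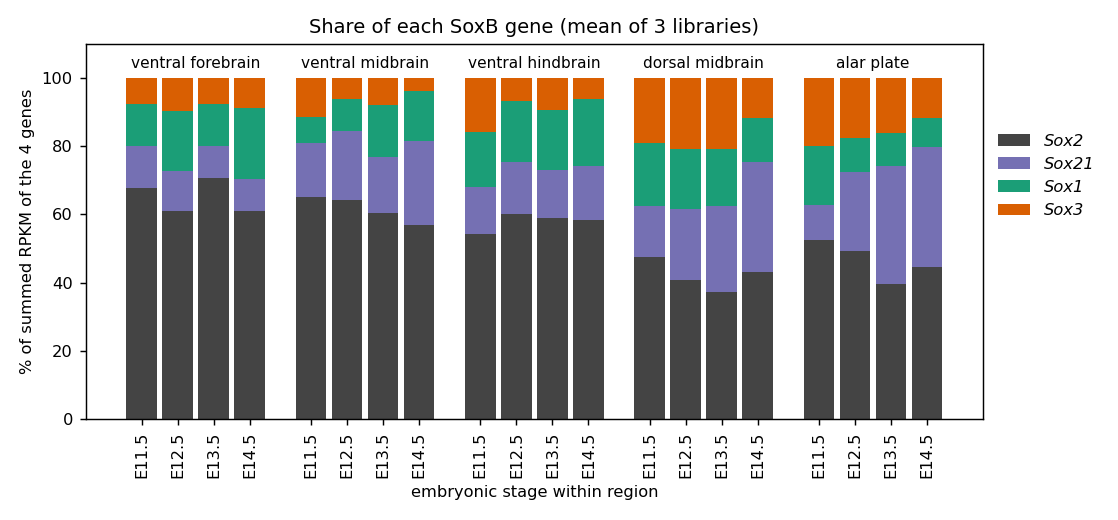
Share of each gene in the summed RPKM of the 4 SoxB genes (vertical axis, percent), as the mean of 3 libraries, for each stage within each region. Sox2 is the largest share in every group, and at E14.5 Sox21 reaches 35.4% in the alar plate.

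**Figure D2:**
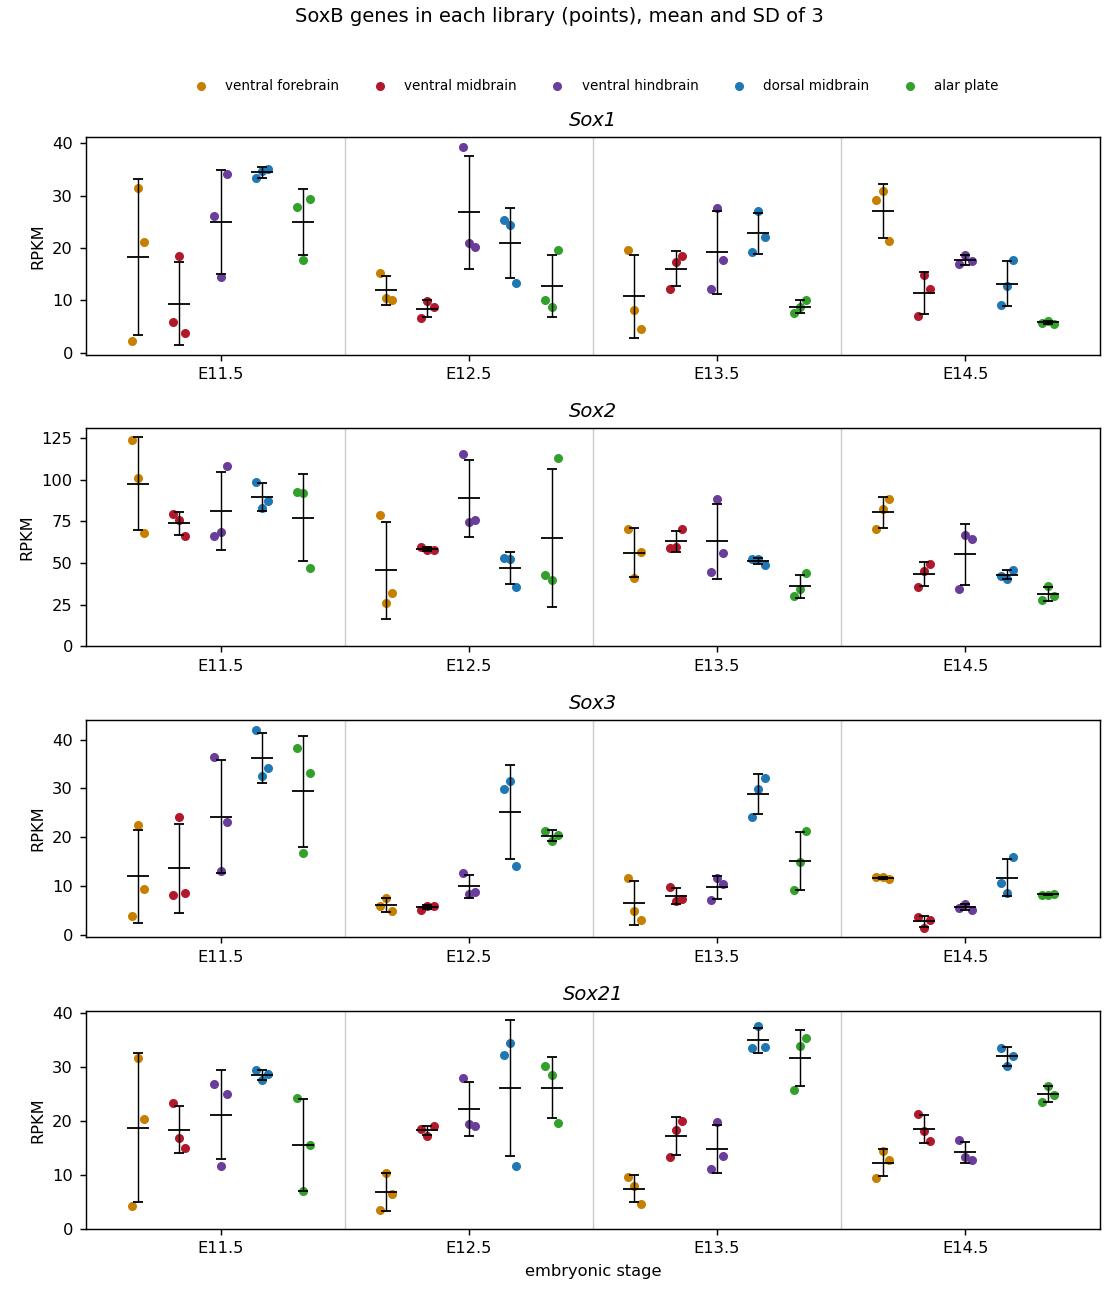
RPKM of Sox1, Sox2, Sox3 and Sox21 (vertical axes) in each of the 60 libraries (points) by region and stage, with the mean and SD of each group of 3. Spread is wide in most groups at E11.5, and Sox3 in the dorsal midbrain lies between 24.2 and 32.2 at E13.5, above all other libraries of that stage.

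The first comparison was whether a gene differed between the 5 regions at a stage. It used limma on log2(RPKM + 1), and the F test was called where its p, adjusted by Benjamini and Hochberg over all genes tested, was below 0.05. At E11.5 none of the 4 was called, in limma or with voom on recovered reads, against 0.116% of 13802 genes, and the members' adjusted p ran from 0.245 (Sox3) to 0.721 (Sox2). At an unadjusted p below 0.05, 1 of 4 passed at E11.5 in the limma fit. At E12.5 Sox1, Sox3 and Sox21 were called, 3 of 4 against 33.9% of all genes. All 4 were called at E13.5, against 59.7%, and at E14.5, against 38.7%.

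Pairs of regions were called at the same adjusted p, over all genes and pairs together, and a log2 difference of at least 1. Of 40 pairs of region by member, 0 were called at E11.5, against 0.0391% of all genes' pairs. At E12.5, 11 of 40 were called against 4.37%, at E13.5 again 11 against 5.18%, and at E14.5 again 11 against 4.86%.

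Sox3 was high in dorsal tissue. At E12.5 it stood at 29.9, 31.6 and 14.1 RPKM in the dorsal midbrain and at 21.3, 19.1 and 20.53 in the alar plate. In the ventral midbrain it stood at 5.17, 5.95 and 5.98 RPKM, below every library of those regions. Ventral forebrain libraries (5.87, 7.58 and 4.80 RPKM) overlapped the ventral midbrain, and those of the ventral hindbrain (12.7, 8.41 and 8.80) lay between. The ventral midbrain was lower than the dorsal midbrain by a log2 difference of -1.89 ± 0.25 (standard error, limma adjusted p = 0.000478) and lower than the alar plate by a log2 difference of -1.67 ± 0.25 (adjusted p = 0.00116). The ventral forebrain minus the dorsal midbrain was -1.82 ± 0.25 (adjusted p = 0.000620) and minus the alar plate -1.61 ± 0.25 (adjusted p = 0.00154). Without the libraries that stand apart, the ventral midbrain minus the alar plate was -1.67 and the ventral forebrain minus the alar plate -1.59, both called, with the 2 remaining alar plate libraries. The ventral hindbrain was lower than the dorsal midbrain by a log2 difference of -1.20 ± 0.25 (adjusted p = 0.00919), but without dorsal midbrain replicate 2 the difference of -0.9992 fell short of the fold threshold. With all the libraries that stand apart left out, it was -1.55 and was called.

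At E13.5 Sox3 was at 24.2, 29.9 and 32.2 RPKM in the dorsal midbrain, above all 12 libraries of the other regions. The alar plate (9.20, 14.9 and 21.3 RPKM) overlapped the ventral hindbrain (7.10, 11.7 and 10.4) and the ventral midbrain (9.75, 6.82 and 7.24). The ventral midbrain minus the dorsal midbrain was -1.74 ± 0.35 on the log2 scale (adjusted p = 0.00221), and the ventral forebrain minus the dorsal midbrain -2.14 ± 0.35 (adjusted p = 0.000493). A difference between ventral forebrain and alar plate was called (-1.19 ± 0.35, adjusted p = 0.0216). It was lost on leaving out ventral forebrain replicate 5 or 6 or alar plate replicate 5 or 6 (adjusted p 0.0554 to 0.0927).

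At E14.5 Sox3 was at 3.73, 1.49 and 3.05 RPKM in the ventral midbrain, from 24, 4 and 11 reads, and its mean there was the lowest of the 20 groups. The dorsal midbrain (10.6, 8.57 and 15.9 RPKM), the ventral forebrain (11.9, 11.8 and 11.3) and the alar plate (8.25, 8.26 and 8.36) lay above it without overlap, as did the ventral hindbrain (5.57, 6.23 and 4.996). The ventral midbrain minus the dorsal midbrain, which shared a run, was -1.77 ± 0.22 (adjusted p = 0.000142). Without the libraries that stand apart this was -1.54 (adjusted p = 0.00267). The ventral forebrain minus the ventral midbrain was 1.81 ± 0.22 (adjusted p = 0.000121) and the ventral midbrain minus the alar plate -1.36 ± 0.22 (adjusted p = 0.00101); these pairs also differ by run.

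Sox21 separated the ventral forebrain from the dorsal regions. At E13.5 it stood at 9.61, 7.95 and 4.65 RPKM in the ventral forebrain, below all libraries of the other regions. The dorsal midbrain (33.4, 37.6 and 33.6 RPKM) and the alar plate (25.6, 33.9 and 35.3) lay above all ventral libraries, and the ventral midbrain (13.2, 18.3 and 20.03) overlapped the ventral hindbrain (11.1, 19.7 and 13.54). The ventral forebrain minus the dorsal midbrain was -2.14 ± 0.23 on the log2 scale (adjusted p = 2.08e-05), and minus the alar plate -1.99 ± 0.23 (adjusted p = 3.70e-05). It was lower than the ventral midbrain by a log2 difference of -1.14 ± 0.23 (adjusted p = 0.00241), and without ventral forebrain replicate 6 by -0.88, short of the fold threshold. The ventral hindbrain was lower than the dorsal midbrain by a log2 difference of -1.22 ± 0.23 (adjusted p = 0.00155). Against the alar plate it was lower by a log2 difference of -1.07 ± 0.23, a call lost without ventral hindbrain replicate 4 or alar plate replicate 6.

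At E14.5 Sox21 was highest in the dorsal midbrain (33.5, 30.1 and 32.1 RPKM), followed by the alar plate (23.4, 26.4 and 24.8) and the ventral midbrain (21.2, 18.2 and 16.2), and these 3 groups did not overlap. The ventral hindbrain (16.4, 13.3 and 12.7 RPKM) overlapped the ventral midbrain above it and the ventral forebrain (9.47, 14.4 and 12.7) below it. The ventral forebrain minus the dorsal midbrain was -1.34 ± 0.14 (adjusted p = 3.29e-05) and the ventral hindbrain minus the dorsal midbrain -1.13 ± 0.14 (adjusted p = 0.000138). These pairs also differ by run, as does the alar plate from the ventral and dorsal midbrain.

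At E12.5 Sox21 in the ventral forebrain (3.48, 10.4 and 6.53 RPKM) lay below every library of the other regions. It was lower than in the alar plate (30.2, 28.4 and 19.7 RPKM) by a log2 difference of -1.87 ± 0.38 (adjusted p = 0.00739). With the libraries that stand apart left out, this was -1.71, still called. Against the ventral hindbrain (27.9, 19.5 and 19.1 RPKM) the difference was -1.65 ± 0.38 (adjusted p = 0.0143). Calls against the dorsal midbrain (-1.76 ± 0.38) and the ventral midbrain (-1.40 ± 0.38) were lost without dorsal midbrain replicate 1 or 2, and without ventral forebrain replicate 1 or 3 or any 1 ventral midbrain library, respectively. With all the libraries that stand apart left out, these differences were -1.89 and -1.05, both called.

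By group mean, the order of regions for Sox1 differed between stages. Neighbouring groups often overlapped, and the change of order was not itself tested. At E12.5 the ventral hindbrain (39.3, 21.00 and 20.2 RPKM) was the highest by mean and the ventral midbrain (6.63, 9.83 and 8.83) the lowest. The ventral midbrain minus the ventral hindbrain was -1.51 ± 0.33 on the log2 scale (adjusted p = 0.0110). The ventral midbrain was also lower than the dorsal midbrain (25.3, 24.4 and 13.4 RPKM), by a log2 difference of -1.19 ± 0.33 (adjusted p = 0.0338). That call was lost without ventral forebrain replicate 2, dorsal midbrain replicate 1 or 2 or any 1 ventral midbrain library (adjusted p 0.0510 to 0.123). With all the libraries that stand apart left out, the difference was -1.47 and was called.

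At E14.5 the ventral forebrain, with 29.3, 30.9 and 21.3 RPKM of Sox1, lay above every library of the other regions. The alar plate, with 5.76, 6.08 and 5.60 RPKM, lay below every one of them. The ventral forebrain minus the alar plate was 2.03 ± 0.24 (adjusted p = 7.72e-05), and the ventral hindbrain (17.04, 18.7 and 17.5 RPKM) minus the alar plate 1.46 ± 0.24 (adjusted p = 0.000961). These 3 regions shared a run.

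Sox1 in the ventral forebrain at E14.5 also exceeded that in the ventral midbrain (7.07, 14.96 and 12.2 RPKM), by 1.22 ± 0.24 (adjusted p = 0.00330), and without ventral midbrain replicate 2 by 0.94. Its excess over the dorsal midbrain (9.23, 12.7 and 17.8 RPKM), at 1.01 ± 0.24 (adjusted p = 0.0105), fell under the fold threshold without ventral forebrain replicate 2 or 3 or dorsal midbrain replicate 2. Without the libraries that stand apart it was 0.70 (adjusted p = 0.0821). The dorsal midbrain minus the alar plate, 1.02 ± 0.24, was no longer called without dorsal midbrain replicate 4 or alar plate replicate 4. All of these E14.5 pairs also differ by run. At E13.5 Sox1 in the dorsal midbrain (19.3, 27.03 and 22.1 RPKM) exceeded that in the alar plate (7.57, 8.80 and 10.1) by 1.27 ± 0.38 and differed from the ventral forebrain (19.7, 8.25 and 4.46), which overlapped it, by a log2 difference of -1.22 ± 0.38 (ventral forebrain minus dorsal midbrain). Each of these calls was lost on leaving out any 1 of 4 libraries, namely dorsal midbrain replicate 5 or 6 for both, alar plate replicate 4 or 5 for the first and ventral forebrain replicate 5 or 6 for the second. At E13.5 the F test of Sox1 (adjusted p = 0.0306) was lost on leaving out ventral forebrain replicate 5, dorsal midbrain replicate 5 or 6, or alar plate replicate 4 or 5 (adjusted p 0.0573 to 0.0781).

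Sox2 was called in the fewest pairs of regions. At E14.5 it stood at 70.4, 82.3 and 88.2 RPKM in the ventral forebrain, above every other library of that stage. The alar plate libraries lay between 27.97 and 36.1 RPKM. The ventral forebrain minus the alar plate was 1.33 ± 0.20 on the log2 scale (adjusted p = 0.000658), and no other pair of regions was called for Sox2 at any stage. The ventral midbrain (35.4, 45.3 and 49.5 RPKM) and the dorsal midbrain (42.4, 40.6 and 45.7) overlapped. In the ventral hindbrain (34.1, 66.8 and 64.4 RPKM) replicate 2, a library that stands apart, was low.

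At E12.5 the F test of Sox2 was not called (adjusted p = 0.232). Ventral forebrain libraries were at 78.99, 25.6 and 31.8 RPKM and alar plate libraries at 42.8, 39.4 and 113, so that replicate 1 of the first and replicate 3 of the second were high. Without ventral forebrain replicate 1 the adjusted p was 0.0406, and without the libraries that stand apart 7.68e-05. At E13.5 the F test of Sox2 (adjusted p = 0.0368) was lost when any 1 of 9 libraries was left out (adjusted p 0.0505 to 0.149). Those were ventral forebrain replicate 6, alar plate replicates 4 and 5, and all 3 libraries of the ventral midbrain and of the dorsal midbrain.

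The ventral midbrain is where midbrain dopaminergic neurons form, and each gene was set there against the mean of the other 4 regions. Sox3 was lower at E12.5, by a log2 difference of -1.08 ± 0.20 (adjusted p = 0.00282), as 1 of 4 members against 0.801% of genes called lower. At E14.5 it was lower by a log2 difference of -1.45 ± 0.17 (adjusted p = 0.000138), again 1 of 4, against 1.21%. At E13.5 the difference was -0.60 ± 0.28 (adjusted p = 0.141), and no member was called, against 2.41% of genes in either direction. At an unadjusted p below 0.05, 0 of 4 passed at E13.5 in the limma fit. Sox2 and Sox21 stayed between -0.19 and 0.33 at all 4 stages, with adjusted p of 0.190 or more. In the run that the ventral and dorsal midbrain shared at E14.5, Sox21 in the ventral midbrain differed by -0.76 from the dorsal midbrain alone.

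Sox1 in the ventral midbrain at E12.5 differed from the other regions by a log2 difference of -0.91 ± 0.26 (adjusted p = 0.0396), short of the fold threshold. At E11.5 no member was called, against 0.0217% of genes, with Sox1 at -1.42 ± 0.56 (adjusted p = 0.398) and Sox3 at -0.81 ± 0.43 (adjusted p = 0.474). At an unadjusted p below 0.05, 1 of 4 passed at E11.5 in the limma fit. Ventral midbrain libraries at E11.5 held 5.91, 18.4 and 3.87 RPKM of Sox1 and 8.10, 24.2 and 8.54 of Sox3, with replicate 4, which stands apart, the high one for both. Without the libraries that stand apart, 7 libraries of 3 regions were left at E11.5. Sox1 then differed by -2.31 (adjusted p = 0.00351) and Sox3 by -1.49 (adjusted p = 0.00519). That omission was chosen after seeing the data.

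**Figure D3:**
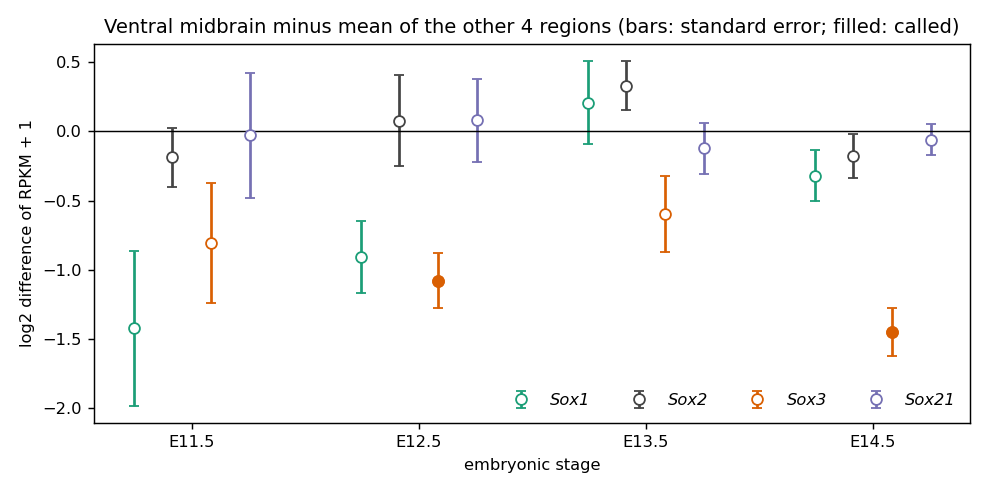
Log2 difference of RPKM + 1 (vertical axis) between the ventral midbrain and the mean of the other 4 regions at each stage, with standard errors; filled points were called. Sox3 is called at E12.5 (-1.08) and E14.5 (-1.45).

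Between E11.5 and E14.5 Sox3 fell in 4 of the 5 regions. In the dorsal midbrain it went from 42.1, 32.5 and 34.1 RPKM to 10.6, 8.57 and 15.9, a log2 change of -1.58 ± 0.27 (adjusted p = 0.00135). The change was -1.84 ± 0.35 in the ventral midbrain (adjusted p = 0.00124), -1.83 ± 0.30 in the ventral hindbrain (adjusted p = 0.000771) and -1.63 ± 0.31 in the alar plate (adjusted p = 0.00508). Without the libraries that stand apart it was -1.54 in the dorsal midbrain, -1.09 in the ventral midbrain and -1.49 in the ventral hindbrain, each still called. The alar plate and the ventral forebrain then have no E11.5 library. In the ventral forebrain Sox3 changed by 0.25 ± 0.50 (adjusted p = 0.771), between libraries of 3.94, 22.6 and 9.43 RPKM and of 11.9, 11.8 and 11.3.

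The earlier falls of Sox3 in the ventral hindbrain, -1.11 ± 0.30 from E11.5 to E12.5 and -1.15 ± 0.30 to E13.5, were lost without E11.5 replicate 2, which stands apart (-0.78 and -0.81). The second was also lost without E13.5 replicate 4. From E12.5 to E14.5 Sox3 fell by a log2 difference of -1.004 ± 0.27 in the dorsal midbrain and -1.20 ± 0.31 in the alar plate. Each of these calls was lost on leaving out any 1 of 4 libraries: dorsal midbrain E12.5 replicate 1 or 2 or E14.5 replicate 2 or 3, and alar plate E12.5 replicate 1 or any at E14.5. Without the libraries that stand apart, the alar plate fall of -1.19 was no longer called (limma adjusted p = 0.0688). That in the dorsal midbrain, -1.32, was still called.

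Sox1 fell in the dorsal midbrain from 33.3, 34.8 and 35.2 RPKM at E11.5 to 9.23, 12.7 and 17.8 at E14.5 (-1.36 ± 0.24, adjusted p = 0.00159). In the alar plate it fell from 27.8, 17.7 and 29.3 RPKM to 5.76, 6.08 and 5.60 (-1.90 ± 0.27, adjusted p = 0.00129), and it was already lower at E13.5 (-1.38 ± 0.27); all 3 E11.5 libraries there stand apart. Sox1 did not pass the test in the ventral regions, where the change was 1.07 ± 0.72 in the forebrain, 0.46 ± 0.42 in the midbrain and -0.39 ± 0.34 in the hindbrain. All ventral forebrain libraries of E11.5 stand apart. Sox2 fell in the dorsal midbrain, from 98.9, 83.03 and 87.1 RPKM to 42.4, 40.6 and 45.7 (-1.04 ± 0.13, adjusted p = 0.000197), and by a log2 difference of -0.97 without E11.5 replicate 2. In the ventral midbrain Sox2 differed by -0.76 ± 0.11 (adjusted p = 0.000249), under the fold threshold.

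Sox21 was not called from E11.5 to E14.5 in any region. Its change was 0.03 ± 0.17 in the ventral midbrain, where the 12 libraries ran from 13.2 to 23.2 RPKM, and 0.16 ± 0.29 in the dorsal midbrain. A rise in the alar plate from E11.5 (24.1, 6.98 and 15.4 RPKM) to E13.5 (25.6, 33.9 and 35.3) was called at 1.12 ± 0.34 (adjusted p = 0.0438). That call was lost when any 1 of 10 of the 12 alar plate libraries was left out, all but E11.5 replicate 2 and E12.5 replicate 3 (adjusted p 0.0574 to 0.118). Likewise, a fall of Sox2 in the alar plate from E11.5 to E14.5 (-1.22 ± 0.37, adjusted p = 0.0474) was lost without any 1 of 9 libraries, all but E11.5 replicate 6 and E12.5 replicates 2 and 3 (adjusted p 0.0535 to 0.126).

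Of the 24 pairs of stage by member in each region, 1 was called in the ventral forebrain, against 8.49% of all genes' pairs, and 2 in the ventral midbrain, against 7.77%. The count was 3 in the ventral hindbrain, against 7.48%, 5 in the dorsal midbrain, against 5.86%, and 6 in the alar plate, against 7.96%. In the ventral forebrain and ventral midbrain the members' share was thus near or under that of all genes. Sox3 from E13.5 to E14.5 fell in the ventral midbrain (-1.29 ± 0.35, adjusted p = 0.0110) and in the dorsal midbrain (-1.26 ± 0.27, adjusted p = 0.00518). On recovered reads with limma's voom, the ventral midbrain change was -1.34 with an adjusted p of 0.119. The ventral forebrain call, Sox2 from E11.5 to E12.5 (-1.22 ± 0.36, adjusted p = 0.0302), was lost without E11.5 replicate 2 or 4 or E12.5 replicate 2 or 3. All E11.5 libraries of that region stand apart.

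**Figure D4:**
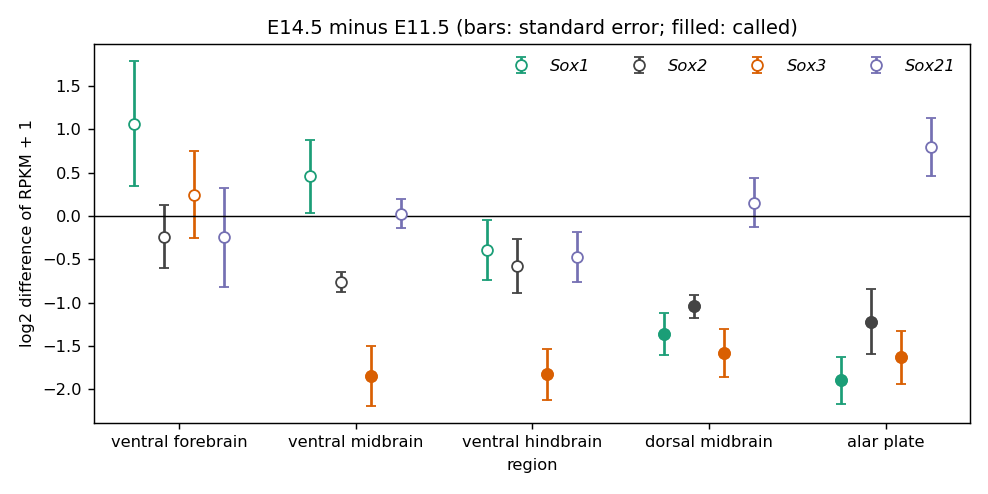
Log2 difference of RPKM + 1 between E14.5 and E11.5 (vertical axis) for each gene in each region, with standard errors; filled points were called. Sox3 lies at -1.58 or lower in 4 regions and at 0.25 in the ventral forebrain, while Sox21 has no filled point. All E11.5 libraries of the ventral forebrain and of the alar plate stand apart.

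In 7 of 240 combinations of member, pair of stages and pair of regions, all libraries of 1 region were higher at the later stage and all of the other lower, against 0.909% over all genes. The region where they were higher was the ventral forebrain in each, for Sox1 or Sox3, and these differences were not tested. Whether the change from E12.5 to E14.5 differed in the ventral midbrain was tested directly. None of the 4 genes was called against the mean change of the other regions, where 0.253% of genes were, or against the dorsal midbrain, where 0.0984% were. At an unadjusted p below 0.05, 0 and 1 of the 4 passed in limma, and voom on recovered reads called none in either comparison. Sox1 against the dorsal midbrain differed by 0.98 ± 0.42 (unadjusted p = 0.0296 in the limma fit, adjusted p = 0.477). Sox3 differed by -0.37 ± 0.27 against the other regions (adjusted p = 0.688).

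Genes with the most similar pattern were ranked by Pearson's r over the 60 libraries, on log2(RPKM + 1) with each stage's mean removed. These are descriptions, and the libraries share region, run and depth. For Sox3 they were H60b (0.83), Txlnb (0.81), Gsx1 (0.80), Boc (0.79) and Ccsap (0.78). Sox21 was most like Sox13 (0.76), Efhd2 (0.73), Jag1 (0.73), Foxn4 (0.72) and D19Ertd737e (0.71). For Sox1 the list was Nckap5 (0.69), Metrn (0.67), Pde2a (0.61), Hspa2 (0.60) and Sox3 (0.59). Sox2 was most like Ctbp2 (0.64), Sox2ot (0.63), Hmx2 (0.62), Hmx3 (0.62) and Rcn1 (0.62).

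Among the members, Sox3 went with Sox21 (r = 0.64) and with Sox1 (0.59), and Sox2 with Sox1 (0.44). Sox2 had an r of 0.02 with Sox3 and -0.15 with Sox21 over the same 60 libraries. Sox2ot, the host of Sox2, was at 43.8, 28.7 and 30.7 RPKM in the ventral hindbrain and 5.67, 4.96 and 5.75 in the dorsal midbrain at E12.5. With each group's mean removed, the r of Sox2 with Sox2ot was 0.55.

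**Figure D5:**
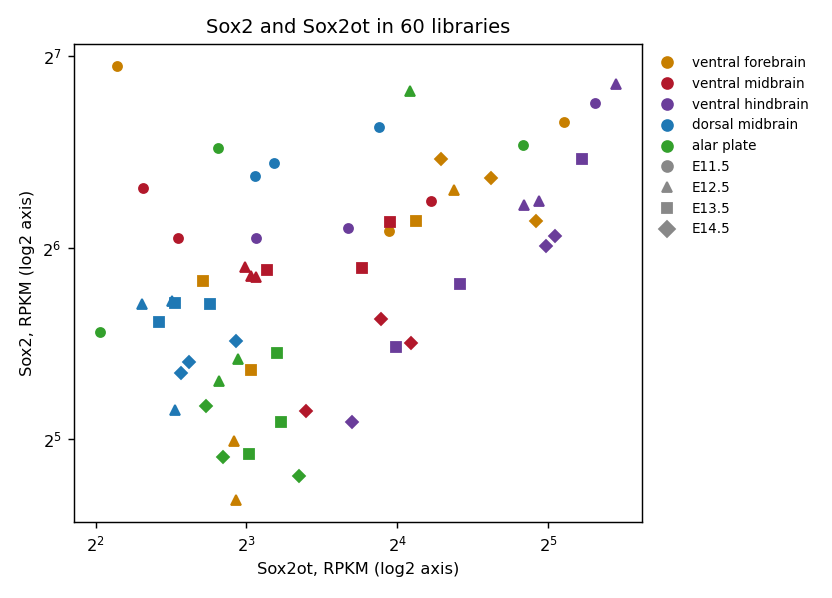
RPKM of Sox2 against RPKM of Sox2ot in the 60 libraries, marked by region and stage. Ventral hindbrain libraries lie towards high Sox2ot, and the r with each stage's mean removed is 0.63.

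Sox14, the other SoxB2 gene, is made in postmitotic neurons. At E12.5 it stood at 3.41 ± 1.35 RPKM in the ventral midbrain and 32.6 ± 9.68 in the dorsal midbrain, and was lower in the ventral midbrain than in the mean of the others by a log2 difference of -2.45 ± 0.42 (adjusted p = 0.00174). Its mean was highest in the dorsal midbrain at E13.5, at 58.7 ± 3.69 RPKM, and at E14.5, at 64.4 ± 12.2. Over the 60 libraries its r with Sox21 was 0.69. The SoxC genes Sox4 and Sox11, of new neurons, stood at 167 ± 9.48 and 111 ± 8.76 RPKM in the ventral midbrain at E13.5. Against the mean of the others, Sox11 in the ventral midbrain at E14.5 was at -0.56 ± 0.08 (adjusted p = 0.000837), under the fold threshold, and neither of the other SoxC genes reached that threshold at any stage.

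Sox9, a SoxE factor of radial glia, was at 31.02 ± 2.23 RPKM in the dorsal midbrain and 14.6 ± 0.722 in the ventral midbrain at E13.5 (ventral minus dorsal -1.03 ± 0.12, adjusted p = 3.17e-05). Sox8, of the same group, ran the other way, at 1.26 ± 0.671 and 5.69 ± 0.398 RPKM (1.61 ± 0.22, adjusted p = 0.000129). Sox13, the SoxD gene most like Sox21, was at 20.9 ± 2.31 RPKM in the dorsal midbrain and 6.18 ± 0.833 in the ventral forebrain. None of the 3 SoxF genes, of vessels, was called between regions at any stage in limma, and the smallest adjusted p was 0.0811, for Sox18 at E13.5.

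Of 11 SoxB partners and targets, 10 differed between regions at E13.5, against 59.7% of all genes, and 10 at E14.5, against 38.7%. The partner Pou3f4, a POU factor, was at 72.3 ± 14.01 RPKM in the dorsal midbrain and 17.6 ± 2.13 in the ventral midbrain at E14.5. Ccnd1, a G1 cyclin, was lower in the ventral midbrain than in the mean of the others at E14.5 by a log2 difference of -2.14 ± 0.28 (adjusted p = 0.000236), the 1 gene of the 11 called. Fabp7, of radial glia, was at 828 ± 112 RPKM in the ventral midbrain and 286 ± 24.6 in the dorsal midbrain at E14.5. From E12.5 to E14.5 in the ventral midbrain 6 of the 11 were called lower, against 2.47% of all genes lower. None of the 4 SoxB members was called over that interval there.

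At E14.5 most of the 12 cell cycle genes were low in the ventral midbrain, as Sox3 was. In the ventral midbrain at E14.5, 11 of 12 were called lower than the mean of the others, against 1.21% of all genes, with a median of -1.18 against -0.03. At E12.5, where Sox3 was also called lower, 0 of 12 were, against 0.801% of all genes. Examples at E14.5 are Mcm2 (-1.09 ± 0.24) and Mcm5 (-1.01 ± 0.22), both of the replicative helicase, and Top2a, a topoisomerase (-1.62 ± 0.41). Their summed level at E14.5 was 71.98 to 83.6 RPKM in the ventral midbrain and 229.8 to 541 in the dorsal midbrain. The part of this difference in that of Sox3 was not tested.

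Of 9 neural progenitor genes, 2 were called higher and none lower in the ventral midbrain at E12.5, against 2.73% of all genes called higher. The same counts were found at E13.5, against 1.92%, and at E14.5, against 2.08%. Slc1a3, a glutamate transporter of radial glia, was higher by 1.86 ± 0.20 at E12.5 (adjusted p = 4.95e-05) and by 1.19 ± 0.19 at E14.5 (adjusted p = 0.00109). Msi1, an RNA-binding protein of progenitors, fell in the ventral midbrain from 123 ± 6.80 RPKM at E12.5 to 55.9 ± 7.96 at E14.5 (-1.13 ± 0.09, adjusted p = 3.56e-06). Of 7 proneural genes tested, 5 fell there over that interval, against 2.47% of all genes called lower, among them Neurog2 (-2.06 ± 0.28) and Dll1 (-1.36 ± 0.11). None of the 11 neuronal genes reached both thresholds over it. Snap25, of synaptic vesicle release, was closest at 0.95 ± 0.09 (adjusted p = 5.97e-06), and Stmn2, of the growing axon, was at 463 ± 27.3 and 692 ± 50.6 RPKM.

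Markers of other tissue were also read. The 6 meningeal mesenchyme genes summed to 69.98 to 128 RPKM in the dorsal midbrain at E12.5 and 63.8 to 85.6 at E13.5, where Sox3 was high. In the ventral midbrain the sums were 12.3 to 13.9 RPKM at E12.5, with Lum at 0 in all 3 libraries, and 14.2 to 352 at E13.5. The 6 erythroid genes in the table, of 7, summed to 2096 to 21300.0 RPKM in the ventral forebrain and 2095 to 15920.0 in the alar plate at E11.5. The 6 vessel genes ran from 17.1 to 129 RPKM and the 6 microglia genes from 5.31 to 56.5 over the 60 libraries. The part of these tissues in the SoxB differences was not tested.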

How the data were processed

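The authors aligned the reads with Bowtie to mm10, per the submitters' processing notes, and deposited RPKM values per gene for all 60 libraries in 1 table; for the counting tool, annotation and strand setting, the sources used here give nothing. All values came out as whole reads within 0.01 read (100.0%), so depth was recovered from the table.

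Groups came from the labels. The members and gene lists were chosen with earlier results of these data known. The main test was limma 3.58.1 (R 4.3.3) (trend option) on log2(RPKM + 1), which understates changes of low genes. Genes entered where a group of the fit averaged 1 RPKM or more. It was fitted within a stage for regions and within a region for stages, with Benjamini-Hochberg adjustment over all genes. It was tried on counts simulated with the same relative spread for every gene. These covered regions at E13.5, stages in the ventral midbrain and the difference of changes there. They do not hold the wide spread seen at E11.5, so they do not show how the test does on such libraries. Calls needed an adjusted p below 0.05 and, outside the F test, a log2 difference of at least 1. Beyond the members, genes were named by a rule: the 5 with the highest correlation with each member, and up to 3 per list with the smallest adjusted p between regions at E13.5; other Sox genes of the lists could be named with their levels; some genes of the lists are not reported here. Alternatives were voom on recovered reads, a pseudocount of 0.1, no filter, median-ratio scaling, the replicate number as a block, all 60 libraries in 1 fit, the adjusted p alone, 1 run, leaving out each library, and, chosen after seeing the data, leaving out the libraries that stand apart. Python 3.11.15, numpy 2.4.6, pandas 2.3.3 and matplotlib 3.10.9 were also used. Gene positions are from GENCODE vM21 and promoter sequences from RefSeq; Sox3 was named only.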

Additional observations from a re-analysis of the deposited data

Results flagged for a closer look

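In 7 cases every library of the ventral forebrain lay on one side at the later stage and every library of another region on the opposite side; none of these differences was itself tested. These are 7 of 240 combinations of member, pair of stages and pair of regions, or 2.92%, against 0.909% of the combinations over all 14692 genes with a group mean of 1 RPKM or more; the combinations share libraries. Sox1 from E12.5 to E14.5 changed by 1.13 on the log2 scale in the ventral forebrain, against -0.51 in the ventral hindbrain (a difference of 1.63) and -0.94 in the alar plate (2.06). From E13.5 to E14.5 Sox1 changed by 1.45 in the ventral forebrain, and the difference was 2.23 from the dorsal midbrain, where it changed by -0.77, and 1.98 from the alar plate, where it changed by -0.52. Sox3 from E12.5 to E14.5 changed by 0.86 in the ventral forebrain. The difference was 1.74 from the ventral midbrain (-0.88), 1.57 from the ventral hindbrain (-0.72) and 2.05 from the alar plate (-1.20). The ventral forebrain, ventral hindbrain and alar plate shared their runs at each of these stages.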

How the results depend on the processing

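The calls of Sox3 lower in the ventral midbrain against the other regions at E12.5 and E14.5 held under every alternative run. With voom and with a pseudocount of 0.1, all 19 counts of calls stayed within 1.5 times, but voom ended 5 of the members' single calls. Besides Sox3 in the ventral midbrain from E13.5 to E14.5, these were Sox3 in the dorsal midbrain from E12.5 to E14.5 (adjusted p = 0.084), Sox21 (0.0555) and Sox2 (0.0613) in the alar plate from E11.5 to E13.5 and to E14.5, and Sox1 in the ventral forebrain minus the dorsal midbrain at E14.5 (0.95, under the fold threshold). The E11.5 and E14.5 libraries hold the fewest reads, which limits Sox3 most.

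With all 60 libraries in 1 fit, the F test called 2 members at E11.5 and 2 at E13.5, the ventral midbrain comparison 1 at E11.5, pairs of regions 5 at E11.5 and 7 at E13.5, and pairs of stages 3 in the ventral forebrain; 12 single calls were lost, 8 of them of Sox1. Without the libraries that stand apart the counts at E11.5 were 2 (F test), 2 (ventral midbrain) and 3 (pairs of regions). At E12.5, 18 pairs of regions were called. Pairs of stages then numbered 1 in the ventral hindbrain and 0 in the alar plate. No E11.5 library was left in the alar plate, and Sox3 there from E12.5 to E14.5 was no longer called (limma adjusted p = 0.0688). With no filter the F test called 2 at E13.5. With the adjusted p alone there were 2 calls in the ventral midbrain at E12.5, 22 pairs of regions at E14.5, and 7 and 9 pairs of stages in the ventral and dorsal midbrain. Median-ratio scaling gave 3 in the dorsal midbrain.

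Whether the replicate numbers pair the libraries was not settled. In 0 of 12 sets of same-numbered libraries were all 10 correlations of deviations over 0.1. The median r of a set ran from -0.031 to 0.288. In each set 6 of 10 were over 0.1 at E12.5 and 7 of 10 at E13.5, against 2 to 4 at E11.5 and 2 to 7 at E14.5. The replicate block gave 3 pairs of stages in the ventral forebrain, 1 in the ventral midbrain, 2 in the dorsal midbrain and 1 in the alar plate. Of 90 single values, 10 lost their call, all of them pairs of stages but the F test of Sox2 at E13.5. In fits of stages the block joined same-numbered libraries of different stages, which cannot come from the same embryo. The correlations above were taken within a stage and do not bear on that block.

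Leaving out each library, the F test at E13.5 called 2 to 4 members, and pairs of stages numbered 0 to 4 in the ventral forebrain, 2 to 4 in the ventral midbrain, 1 to 3 in the ventral hindbrain and 3 to 8 in the alar plate. Of E11.5 libraries, leaving out ventral forebrain replicate 4 gave 0, its replicate 2 gave 4, ventral midbrain replicate 4 gave 4 and ventral hindbrain replicate 2 gave 1.

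Only values without a call changed sign. In the ventral midbrain against the other regions, Sox21 was 0.17 within 1 run at E11.5, and -0.17 at E12.5 and 0.0068 at E14.5 without the libraries that stand apart. The run of the ventral midbrain at E14.5 holds the dorsal midbrain alone, and Sox2 differed from that region by 0.0044. Leaving out 1 library, Sox21 ranged at E11.5 between -0.22 and 0.11, at E12.5 between -0.039 and 0.16, at E13.5 between -0.24 and 0.047, and at E14.5 between -0.16 and 0.030; that of Sox2 at E12.5 was -0.00061 to 0.20. For the difference of changes, Sox21 was 0.18 (other regions) and 0.12 (dorsal midbrain) without the libraries that stand apart. Against the dorsal midbrain Sox3 was -0.055 with a pseudocount of 0.1 and ran from -0.078 to 0.48 leaving out 1 library, and Sox21 from -0.67 to 0.074. The cause of these changes was not tested.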
